A study of Mus musculus with 14 samples.

Results

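The FGF pathway genes described here were 20 genes of the ligand family, 6 for receptors and a co-receptor, and 9 for feedback regulators and target genes, together 35 of the 21938 protein-coding genes on the assembled mouse chromosomes. They were taken as a list of names, and for each of them the listed H3K27me3 sites were collected that overlapped its body or the ± 1 kb windows around its transcriptional start sites (TSSs). H3K27me3, the trimethylation of lysine 27 of histone H3, was measured by ChIP-seq in iMEF cells, which are immortalised mouse embryo fibroblasts. In these cells the floxed Ash2l gene (Ash2l fl/fl) had been inactivated by Cre-ER through the loss of exon 4, and a lentiviral FKBP-HA2-ASH2L, human ASH2L with the FKBP12F36V degron and HA tags, took its place. ASH2L is a subunit of the KMT2 complexes that methylate H3K4, and dTAG-13 is a PROTAC that directs the tagged protein to degradation. All groups shared the deletion and the transgene, and they comprised 2 libraries of control cells and 2 each of cells exposed to dTAG-13 for 30 min, 2 h, 4 h, 8 h and 16 h, in all 12 H3K27me3 libraries, besides 1 control input library and 1 input library from the 16 h treatment. The study names a single clone, NG3, for its ChIP-seq of histone marks.

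The sites analysed are a single list that the authors brought together over all samples. It gives positions only, without counts, scores or calls by library, so no effect of dTAG-13 on the FGF genes was analysed here, no replicate error can be attached to a value, and no test was run. A site means that the mark was called in at least some of the samples, and the depth behind it is unknown. A gene without a site may carry the mark below the level of the calls. In a bulk measurement a site also cannot tell a mark on all cells from a mark on some of them.

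FGFs are signalling proteins, most of them secreted, that bind to receptor tyrosine kinases together with heparan sulphate or a Klotho co-receptor and so activate the Ras-MAPK cascade. Sprouty and Spred proteins and the phosphatase Dusp6 are induced by the pathway and dampen it, and the ETS factors Etv4 and Etv5 are among its transcriptional targets. H3K27me3 is set by Polycomb repressive complex 2 and is known for broad domains over silent developmental genes, often at CpG islands, which are stretches rich in unmethylated CG dinucleotides.

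To show the DNA on which sites were or were not called, the 250 bases upstream of the RefSeq start are given for the members with the highest and the lowest covered share of their TSS windows in each role, among the 27 of 35 members that matched the RefSeq promoter table of GRCm38.p6 (Fgf1, Fgf8, Fgf15, Fgf17, Fgf20, Fgfr1, Spry4 and Etv4 were not matched). Each sequence is written 5′ to 3′ in the direction of the gene, and the capitals mark CG dinucleotides. The first of each pair lay inside a site, the stretches of Fgf3 and Fgfr4 throughout and that of Spry1 over 98% of its bases, and the second had no listed site.
Fgf3, chr7:144838362-144838611, plus strand: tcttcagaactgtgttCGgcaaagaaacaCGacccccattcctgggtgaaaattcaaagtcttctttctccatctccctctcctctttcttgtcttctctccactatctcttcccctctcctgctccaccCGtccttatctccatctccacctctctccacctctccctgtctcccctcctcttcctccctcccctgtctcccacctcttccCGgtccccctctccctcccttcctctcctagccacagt
Fgf2, chr3:37348403-37348652, plus strand: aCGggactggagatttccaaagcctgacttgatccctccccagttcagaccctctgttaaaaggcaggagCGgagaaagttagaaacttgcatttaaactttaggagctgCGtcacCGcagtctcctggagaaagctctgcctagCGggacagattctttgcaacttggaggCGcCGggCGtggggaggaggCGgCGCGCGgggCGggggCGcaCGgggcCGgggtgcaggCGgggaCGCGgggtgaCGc
Fgfr4, chr13:55152568-55152817, plus strand: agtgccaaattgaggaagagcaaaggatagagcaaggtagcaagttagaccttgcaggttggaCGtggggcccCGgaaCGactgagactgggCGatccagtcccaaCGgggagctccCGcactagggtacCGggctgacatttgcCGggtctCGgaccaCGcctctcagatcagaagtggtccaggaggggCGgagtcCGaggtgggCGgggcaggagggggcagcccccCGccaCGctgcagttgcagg
Fgfrl1, chr5:108693979-108694228, plus strand: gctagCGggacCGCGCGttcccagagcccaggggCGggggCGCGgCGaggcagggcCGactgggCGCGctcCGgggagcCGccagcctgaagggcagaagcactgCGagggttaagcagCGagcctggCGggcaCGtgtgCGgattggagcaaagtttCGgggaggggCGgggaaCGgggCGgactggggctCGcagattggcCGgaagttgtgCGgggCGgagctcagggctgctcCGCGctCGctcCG
Spry1, chr3:37639697-37639946, plus strand: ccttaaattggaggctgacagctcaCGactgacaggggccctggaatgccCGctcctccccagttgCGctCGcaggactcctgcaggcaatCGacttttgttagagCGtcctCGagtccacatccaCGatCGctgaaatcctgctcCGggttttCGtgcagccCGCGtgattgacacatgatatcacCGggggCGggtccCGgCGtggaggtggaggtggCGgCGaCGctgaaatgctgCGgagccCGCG
Etv5, chr16:22439571-22439820, minus strand: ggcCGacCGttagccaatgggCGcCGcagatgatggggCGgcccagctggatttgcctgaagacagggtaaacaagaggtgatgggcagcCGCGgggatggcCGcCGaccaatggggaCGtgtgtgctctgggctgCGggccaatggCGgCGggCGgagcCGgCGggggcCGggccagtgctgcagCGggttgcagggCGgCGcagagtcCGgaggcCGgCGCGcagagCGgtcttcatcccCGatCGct

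Ties in cover were broken by the width of the widest site and then by name, which set Fgf3 before Fgf4 and put Fgf2 and Etv5 in place of other members at 0. There were 4 CG dinucleotides in the fully covered stretch of Fgf3 and 20 in that of Fgf2, which has no site, 15 in Fgfr4 against 30 in Fgfrl1, and 23 in Spry1 against 27 in Etv5. Tied members differed widely, with 21 in Fgf4, 6 in Fgf7 and 6 in Spred3, so these pairs give no direction for the CG count. Across the matched members the count ran from 2 in Fgfr2 to 37 in Fgf18, with medians of 9 for 15 ligands, 15 for 5 receptors and the co-receptor, and 23 for 7 feedback genes, beside 6 for the 32851 promoters of the table. Letters of known promoter elements were searched on both strands. GGGCGG, the GC box bound by Sp1, was found in 17 of the 27 members and in 32.7% of all promoters of the table, CCAAT in 9 of 27 and in 33.8%, and TATAAA in 1 of 27, Fgf21, and in 12.4%. The GC box was present in 9 of 15 ligands, 3 of 5 receptors and the co-receptor, and 5 of 7 feedback genes. These matches describe letters only, and no factor was measured.

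The list held 153878 sites on the assembled chromosomes, of which 11.3% were at least 2 kb wide. The median width was 455 bp, and the narrowest sites measured 200 bp. As a description of the labelled cells, 3 of 10 fibroblast genes had a site in the TSS windows, close to the 31.5% of all protein-coding genes. These sites were narrow (389 bp at Col1a1, 363 bp at Vim and at most 437 bp at Pdgfra). None of the 10 had a site of at least 2 kb there, beside 16.1% of all genes. Of 8 genes that mark other cell types 5 had a site, and those at Epcam, Sox2, Neurod1 and Cdx2 were at least 2 kb wide. Pou5f1 had sites of at most 609 bp in its TSS windows, and Ptprc, Cdh5 and Pecam1 had none there.

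Counted over all annotated TSSs, wide H3K27me3 sites were more frequent among the ligand genes than among receptors or feedback genes. Of the 20 ligands 15 had a site within 1 kb of a TSS and 11 had one of at least 2 kb there, whereas 31.5% and 16.1% of all protein-coding genes had one. Among the 6 receptors and the co-receptor 4 had a site and 2, Fgfr3 and Fgfr4, a wide one. Of the 9 feedback genes 2, Spry1 and Dusp6, had a site and none had a site of 2 kb or more. Sites of at least 5 kb lay at the TSSs of 8 ligands, 2 receptors and no feedback gene, with 8.69% as the share of all genes. These counts rest on all annotated TSSs. With the 5′ end of each gene as its only TSS, 6 of 20 ligands, 2 of 6 receptors and co-receptor and 14.3% of all genes had a wide site, so that the ligands no longer had the higher share of these 2 roles. Without Fgf11, Fgf12 and Fgf14, whose proteins are not secreted, 12 of 17 ligands had a site and 8 of 17 a wide one. When sites closer than 5 kb were joined, wide sites were found in 15 ligands, 4 receptors and co-receptor, 1 feedback gene and 25.5% of all genes.

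**Figure D1:**
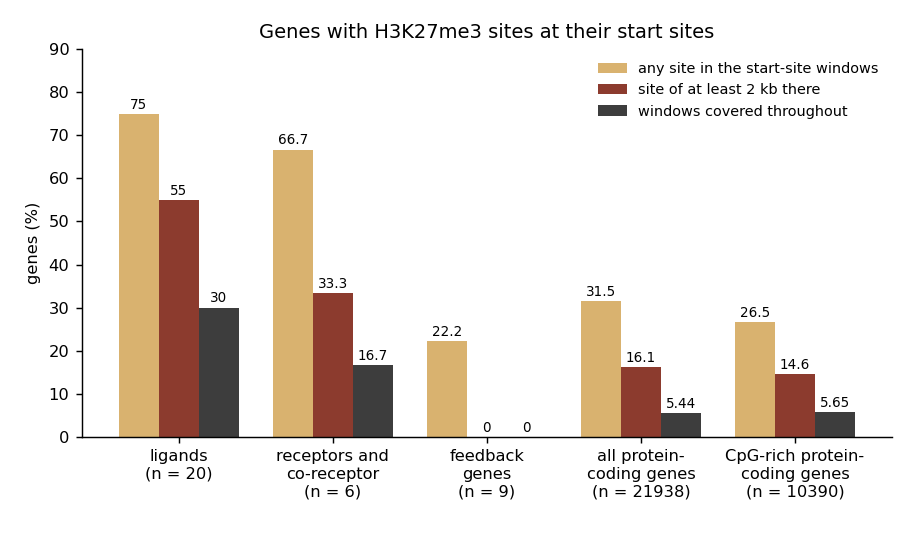
Share of genes (%) with any H3K27me3 site within 1 kb of a TSS, with a site of at least 2 kb there, and with TSS windows covered throughout, by role and for all and for CpG-rich protein-coding genes. Ligands stand at 75%, 55% and 30%, above the receptors and co-receptor, and feedback genes at 22.2%, 0 and 0, below the 31.5%, 16.1% and 5.44% of all genes.

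The covered share, meaning the share of bases that lay inside listed sites, differed between the roles in the TSS windows. Its median over the windows was 53.5% for ligands, 22.4% for the receptors and co-receptor and 0 for feedback genes, and over all protein-coding genes it was 0 with a mean of 14.7%. In 6 ligands and Fgfr4 the windows were covered from end to end, which held for 5.44% of all genes. Over the whole gene region (body and windows) the median was 13.9% for ligands, 22.6% for receptors and co-receptor and 1.24% for feedback genes. Over all genes the median was 0 and the mean 11.2%. With curated RefSeq genes the medians of the roles were 12.9%, 15.6% and 1.24%, and the share of Fgfr2 was 1.85% instead of 15.9%. The shares of the ligands were 85.5% to 100% in 6 and at most 21.7% in 14. Such a share depends on the length of the region. Widest sites of 6019 bp at Fgf11 and 6044 bp at Fgf9 went with 85.5% of 6.79 kb and 16.5% of 43.2 kb. The short regions of Fgf21 and Fgf22, 2.6 and 4.52 kb, had no site. The median of the ligands was below that of the receptors and co-receptor. The mean of the ligands, 34.7%, was above the 21.6% of that role and the 7.79% of feedback genes. Regions covered by at least 50% were found for 6 ligands and no receptor or feedback gene, beside 9.28% of all genes. The number of annotated TSSs, which raises the chance of an overlap, had a median of 2 in ligands, 9.5 in receptors and co-receptor, 3 in feedback genes and 3 in all genes. Counted per TSS, 34 of 61 ligand TSSs (55.7%), 19 of 57 of the receptors and co-receptor (33.3%) and 5 of 32 of feedback genes (15.6%) had a site in their window, and 19.9% of all TSSs did.

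**Figure D2:**
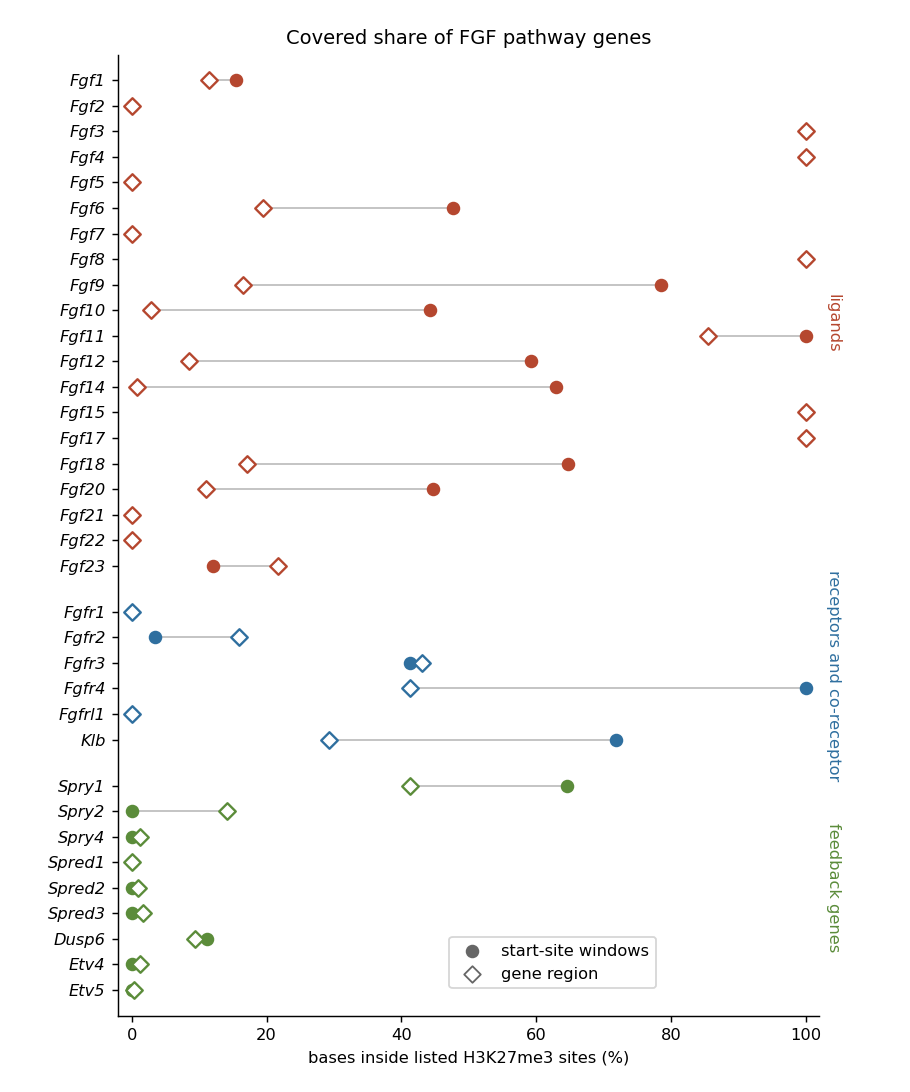
Covered share (% of bases inside listed H3K27me3 sites) of the TSS windows (filled circles) and of the gene region (open diamonds, drawn over the circle where both values are equal) for each of the 35 genes, in 3 blocks by role. Fgf3, Fgf4, Fgf8, Fgf15 and Fgf17 sit at 100% on both measures, and 7 of the 9 feedback genes have 0% in their TSS windows.

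The widest site of the pathway spanned the neighbouring genes Fgf3 and Fgf4 on chromosome 7. Fgf3 acts in the development of the inner ear and Fgf4 in the early embryo and limb bud. The site extended over 58564 bp (144820102 to 144878665, GRCm38), from 18.5 kb upstream to 40.1 kb downstream of the RefSeq Select TSS of Fgf3. It contained both genes whole, Fgf3 at 144838083 to 144844436 and Fgf4 at 144847367 to 144865243, both on the plus strand and with 2 annotated TSSs each, so their values come from the same site and are not independent. Fgf15, an intestinal hormone that limits bile acid synthesis, follows 35.1 kb downstream of the TSS of Fgf4 (144896531 to 144900953). All 4 of its TSSs and its whole body lay inside a separate site of 10503 bp. In the stretch from 60 kb upstream to 100 kb downstream of the TSS of Fgf3, 15 sites covered 68.4% of the bases, and 8 of them were at least 2 kb wide. The next genes downstream, LTO1 and Ccnd1, had no site in their TSS windows or bodies.

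**Figure D3:**
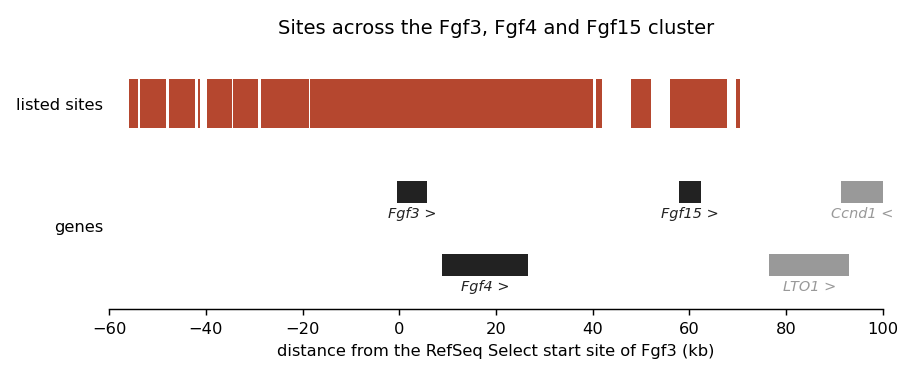
Listed H3K27me3 sites (upper track) and protein-coding genes (lower track, with arrowheads for the strand) against the distance from the RefSeq Select TSS of Fgf3 in kb. The 58564 bp site spans Fgf3 and Fgf4, a site of 10503 bp spans Fgf15, and LTO1 and Ccnd1 lie beyond the last site.

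The subfamily of Fgf8, Fgf17 and Fgf18, ligands of brain, limb and skeletal development, had a site at every annotated TSS. Fgf8 (chromosome 19, 45736798 to 45742915, minus strand) lay whole within 8742 bp of a single site, which reached 2.11 kb upstream of the RefSeq Select TSS. Fgf17 (chromosome 14, 70636203 to 70642268, minus strand) lay within a site of 10633 bp. This site also held a TSS of Dmtn, an actin-binding protein, whose nearest TSS was 6206 bp away. In Fgf18 (chromosome 11, 33117430 to 33147400, minus strand) the pattern was broken up, with a site of 1205 bp over the TSS, another of 1789 bp in the intron behind it and 4 more in the body. The windows of Fgf18 were covered by 64.8% and its region by 17.1%. Regions covered throughout were thus found in 5 ligands, Fgf3, Fgf4, Fgf8, Fgf15 and Fgf17, and in 1.73% of all protein-coding genes.

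Fgf9 and Fgf20 belong to a subfamily with roles in the gonad, lung and inner ear, and both had a wide site at the RefSeq Select TSS. At Fgf9 (chromosome 14, 58070547 to 58112720, plus strand) the site measured 6044 bp and ran 5.69 kb into the gene, and all 4 TSSs had a site. The covered share was 78.6% in the windows of Fgf9 and 16.5% over its region. Fgf20 (chromosome 8, 40279166 to 40308331, minus strand) had a site of 3120 bp that covered 89.5% of the window of the RefSeq Select TSS, while another TSS 21.4 kb upstream had none. The region of Fgf20 was covered by 11.0% with the GENCODE body and by 37.8% with the RefSeq body, which leaves out the upstream stretch.

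Fgf11, Fgf12 and Fgf14 encode proteins that stay inside the cell and bind voltage-gated sodium channels rather than acting as ligands, and each of them had a wide site. Fgf11 (chromosome 11, 69796068 to 69801857, minus strand) is short and was covered over 85.5% of its region, with a site of 6019 bp across both TSSs. Fgf12 (chromosome 16, 28160098 to 28753068, minus strand) and Fgf14 (chromosome 14, 123977907 to 124677127, minus strand) extend over 593.0 kb and 699.2 kb, and their regions were covered by 8.45% and 0.743%. Fgf12 held 98 sites, of which 4 lay in TSS windows. The windows of 4 of 6 TSSs, which lie up to 307.0 kb apart, were covered by between 95.6% and 100%, and those of the other two had no site. In Fgf14 an internal TSS, 484.2 kb downstream of the RefSeq Select TSS, lay in a site of 3173 bp with its window covered throughout, while the window of the RefSeq Select TSS was covered by 26.04%.

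Fgf10, which is grouped with Fgf3, Fgf7 and Fgf22 and is needed for lung and limb buds, had a site of 2522 bp at the RefSeq Select TSS (chromosome 13, gene at 118669791 to 118792115, plus strand). Its window there was covered by 89.2%, and a pair of TSSs about 44.9 kb upstream had no site. Fgf6, a muscle ligand (chromosome 6, 127015586 to 127028187, plus strand), had 955 bp at the TSS and 2 further sites in exons, the wider one 1503 bp. Fgf23, the phosphate hormone of bone, lies 57.4 kb away on the same strand (127072902 to 127081408) and had its TSS outside any site. The nearest site of Fgf23 began 760 bp downstream in an intron and was 449 bp wide, and the 4 narrow sites of the gene covered 21.7% of its region.

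Fgf1, a ligand without a classical signal peptide, had a scattered pattern. The gene (chromosome 18, 38838673 to 38929472, minus strand) shares its body in part with Arhgap26 and held 20 sites over 11.4% of its region, the widest 2770 bp in an intron. Of 9 annotated TSSs of Fgf1 only 1 had sites in its window, which were 3 in number and at most 907 bp wide. The RefSeq Select TSS lay 74 bp from the nearest site and not inside it, with 71.5% of the window covered.

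No site was listed in the region of 5 ligands, namely Fgf2, Fgf5, Fgf7, Fgf21 and Fgf22. Fgf2, the classical fibroblast mitogen (chromosome 3, 37348346 to 37410108, plus strand), had 7 TSSs without a site and its nearest site 31.6 kb from the RefSeq Select TSS. Fgf5, which ends the growth phase of hair (chromosome 5, 98254184 to 98277030, plus strand), and Fgf7, the keratinocyte growth factor made by mesenchymal cells (chromosome 2, 126034658 to 126091185, plus strand), were farther from any site, at 67.2 kb and 113.1 kb. The nearest sites of Fgf21, a metabolic hormone of the liver (chromosome 7, 45613886 to 45615490, minus strand), and of Fgf22, a ligand that organises synapses (chromosome 10, 79755076 to 79758596, plus strand), were only 3.86 kb and 2.97 kb away. The region of Fgf2 aligned over its whole length to an alternate locus of another mouse strain in the assembly, at an identity of 98.9% with each gap counted as 1 difference. Whether that sequence was part of the authors' reference is not given in the sources used here, and its part in the absence of sites was not tested.

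Among the receptor tyrosine kinases, Fgfr3 and Fgfr4 had wide sites at the TSS and Fgfr1 and Fgfr2 had not. Fgfr3, a brake on bone growth (chromosome 5, 33721674 to 33737068, plus strand), had a site of 6139 bp that held 8 of its 14 TSSs, none farther than 2.05 kb from the RefSeq Select TSS, and a site of 222 bp touched the window of another TSS. The windows of Fgfr3 were covered by 41.3% and its region by 43.1%. Fgfr4, the receptor that relays Fgf15 in liver (chromosome 13, 55152640 to 55168759, plus strand), had all 3 TSSs within a site of 6193 bp, full cover of the windows and 41.2% over the region. Fgfr1 (chromosome 8, 25513654 to 25575718, plus strand) had 18 annotated TSSs and no site at any of them or in its body, and its nearest site was 21.8 kb away.

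Fgfr2, which binds Fgf7 and Fgf10 in epithelia, gave values that depended on the annotation. In GENCODE M21 the gene (chromosome 7, 130162451 to 133123350, minus strand) extends over 2961 kb because of a transcript whose TSS lies 2 bp from one of Ctbp2. This stretch held 474 sites, and 15.9% of the region was covered. With curated RefSeq transcripts the region was 105.4 kb long, held 7 sites and was covered by 1.85%, and its TSS had no site. In GENCODE 4 of 14 TSSs of Fgfr2 had a site of at most 284 bp in the window. Fgfr2 therefore counted among the 4 members of its role with a site only through narrow sites at internal TSSs.

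Fgfrl1, a receptor-like protein without a kinase domain (chromosome 5, 108692382 to 108706924, plus strand), had no site at its 5 TSSs or in its body, and the nearest was 28.9 kb away. Klb, β-Klotho, the co-receptor for Fgf15 and Fgf21 (chromosome 5, 65348314 to 65384007, plus strand), had all 3 TSSs in a site of 1443 bp, with the windows covered by 71.8%. A wider site of 6261 bp lay in an intron of Klb and started 15.1 kb downstream of the RefSeq Select TSS, and 9 sites together covered 29.3% of the region. Fgf15, Fgfr4 and Klb, which act in the same hormonal axis, all had sites at every annotated TSS. Klb also serves Fgf21, and Fgf21 and Fgfr1 had no site. Of the other endocrine genes, Fgf23 had a site of 449 bp in its TSS window and its co-receptor gene Kl one of 7190 bp. A pattern by hormonal axis was not tested.

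Feedback genes had few sites and none of 2 kb or more. Their 9 regions held 11 sites in total, 4 of them of the minimum width of 200 bp, and the widest was the 1767 bp site at the TSS of Spry1. The median width of 368 bp was close to the 367 bp of the sites in ligand regions. Spry1 (chromosome 3, 37639947 to 37644598, plus strand), an inhibitor of receptor signalling upstream of Ras, was the exception in its role. Its 3 TSSs lay in that site (37639702 to 37641468), its windows were covered by 64.6% and its region by 41.3%. The gene lies 291.3 kb from Fgf2, which had no site. Spry2 (chromosome 14, 105891947 to 105896819, minus strand) had no site at its TSS, but a site of 830 bp in an exon 3.17 kb downstream covered 14.1% of its region. In Spry4 (chromosome 18, 38586247 to 38601415, minus strand) a site of 200 bp in an exon covered 1.24% of the region.

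The covered shares of the other feedback regions ran from 0 at Spred1 to 9.36% at Dusp6, beside a median of 0 and a mean of 11.2% over all genes. Dusp6, the cytoplasmic phosphatase that inactivates ERK (chromosome 10, 99263231 to 99267489, plus strand), lacked a site in the window of its RefSeq Select TSS. A site of 492 bp began 1271 bp downstream in an exon and fell into the windows of 2 internal TSSs, and it covered 9.36% of the region. Spred1, which keeps Ras inactive by binding neurofibromin (chromosome 2, 117121374 to 117182279, plus strand), was the only feedback gene without a site in its region, and its nearest site was 6.31 kb away. Spred2 (chromosome 11, 19924375 to 20024026, plus strand) had 3 intronic sites of 370, 200 and 368 bp over 0.932% of its region, and Spred3 (chromosome 7, 29158829 to 29170411, minus strand) a single exonic site of 202 bp over 1.61%. Etv4 (chromosome 11, 101769742 to 101785371) and Etv5 (chromosome 16, 22381309 to 22439719), both on the minus strand, each had a single site of 200 bp in an exon, which covered 1.203% and 0.337% of their regions, and none of their 10 and 5 TSSs had a site. With any site in the region as the measure, 8 of 9 feedback genes counted, against 15 of 20 ligands, 4 of 6 receptors and co-receptor and 48.0% of all genes. Most of these feedback genes counted through a single site.

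**Figure D4:**
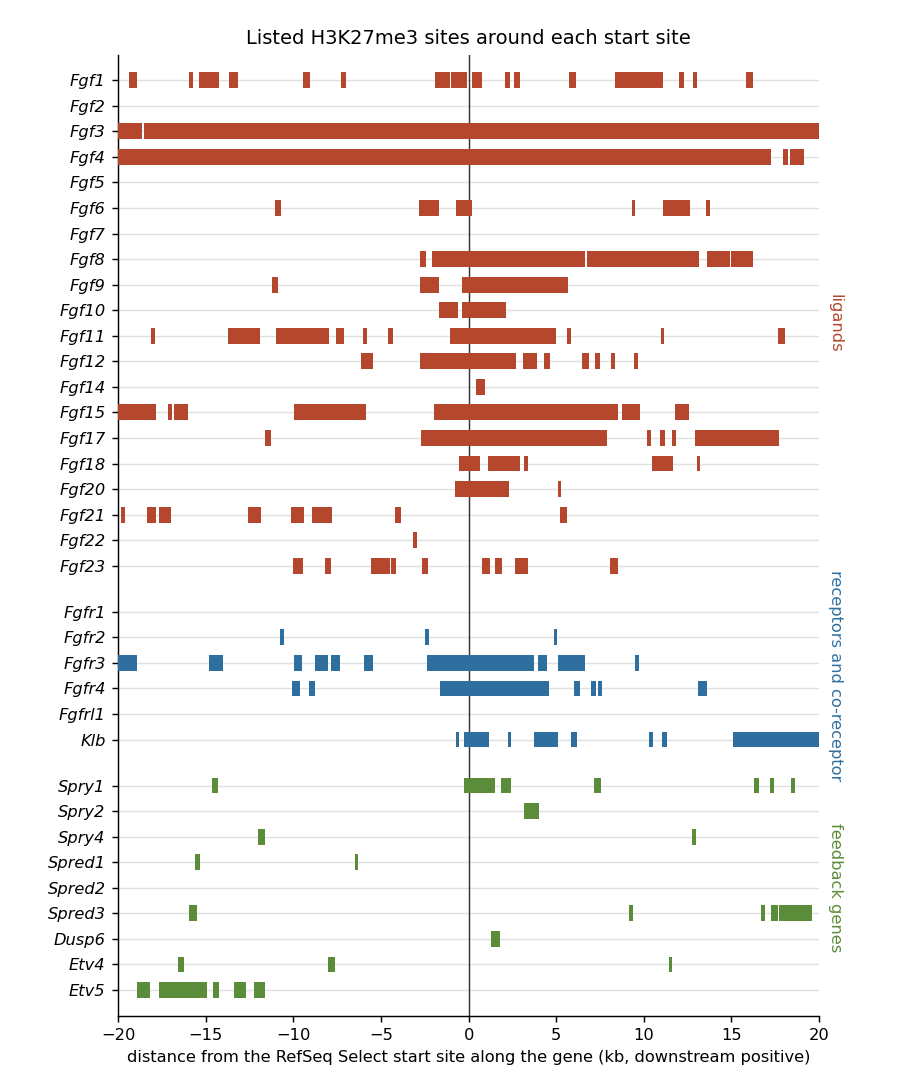
Listed H3K27me3 sites (bars, to scale) within 20 kb of the RefSeq Select TSS of each of the 35 genes, with the direction of transcription to the right and distance in kb. Ligands with a wide site in their TSS windows, other than Fgf14, have one across the TSS drawn here, and feedback genes other than Spry1 have no bar at the TSS.

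The position of the sites along the gene was compared at the RefSeq Select TSS, the single TSS that RefSeq chooses for a gene. This TSS lay inside a site in 12 of 20 ligands, 3 of 6 receptors and co-receptor and 1 of 9 feedback genes, Spry1. The share of all protein-coding genes was 17.1%, with the 5′ end taken for genes without a RefSeq Select TSS. Within 500 bp of the TSS the mean covered share was 61.1% for ligands, 46.4% for the receptors and co-receptor, 8.28% for feedback genes and 16.8% for all genes. More than 10 kb upstream it was 15.9%, 3.68% and 7.63% for the roles and 11.5% for all genes, and more than 10 kb downstream 18.01%, 9.86%, 4.14% and 9.38%. The cover of ligand and receptor genes was thus highest around the TSS, and that of feedback genes was at most 24.1%, in a bin more than 10 kb upstream. The shared site of Fgf3 and Fgf4 enters the mean of the ligands with both genes.

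**Figure D5:**
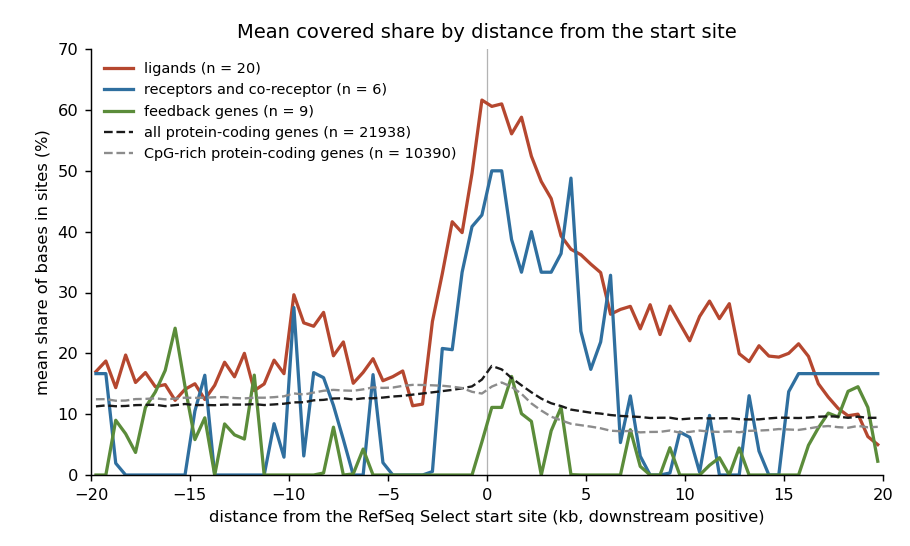
Mean covered share (% of bases in sites, in bins of 500 bp) against the distance from the RefSeq Select TSS in kb for ligands, receptors and co-receptor, feedback genes, all protein-coding genes and CpG-rich protein-coding genes. The ligand curve peaks at 61.6% next to the TSS and the receptor curve at 50%, while all genes peak at 17.9%.

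The sites in TSS windows of the ligands had a higher median width than all sites of their regions. The 23 sites in ligand TSS windows had a median width of 1789 bp, 11 of them were at least 2 kb wide and none had the minimum width. All 149 sites in ligand regions, TSS windows included, had a median of 367 bp, and 26 had the minimum width. Fgf12 held 98 of them and Fgf1 20, so these values describe mainly these genes. A wide site is also more likely to overlap a window, which was not corrected for. The centres of 131 of these 149 sites lay in introns, 14 in exons and 4 outside the body. In feedback genes 7 of 11 centres lay in exons and 4 in introns. In the receptors and co-receptor the 8 sites in TSS windows had a median width of 262 bp. The 492 sites of their regions, 474 of them in Fgfr2, had a median of 510.5 bp.

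The base composition of the promoters was compared because H3K27me3 is often found at CpG islands. A promoter counted as CpG-rich if, within 500 bp of the RefSeq Select TSS, G and C made up 50% or more of the bases and CpG reached 0.6 of the number expected from them. Thus 9 of 20 ligands, 4 of 6 receptors and co-receptor and 8 of 9 feedback genes were CpG-rich, beside 47.4% of all protein-coding genes. The median ratios of observed to expected CpG were 0.55, 0.70 and 0.82 for the roles and 0.59 for all genes. Among the CpG-rich members 7 of 9 ligands had a site and 6 a wide one, 2 of 4 receptors, Fgfr3 and Fgfr4, had a wide one, and 2 of 8 feedback genes had a site and none a wide one, beside 26.5% and 14.6% of all CpG-rich genes. Of the other ligands 8 of 11 had a site and 5 a wide one, beside 36.0% and 17.5% of the genes that were not CpG-rich. The median cover of the TSS windows was 78.6% in CpG-rich ligands and 44.2% in the others, and sites of at least 5 kb lay at 6 of 9 and 2 of 11. Fgf2, Fgf5, Fgfr1 and Fgfrl1 were CpG-rich at ratios of 0.75, 0.74, 0.80 and 0.81 and had no site, while Fgf11 and Fgf17, at 0.38 and 0.40, were covered throughout their windows. Whether base composition has a part in the difference between the roles was not tested.

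The surroundings of the members were described by the genes with a TSS within 50 kb of a member's TSS. Around the 11 ligands with a wide site there were 20 such genes outside the pathway, most of them near Fgf11. Of these, 6 had a site and 1, Dmtn, a wide one, beside 31.5% and 16.1% of all protein-coding genes. Around the 5 ligands without a site there were 16, of which 4 had a site and 1, Hcn2, a wide one. Hcn2, a pacemaker channel gene 38.4 kb from Fgf22, had a site of 10740 bp that covered its TSS windows throughout. None of the 14 neighbours of the receptors and co-receptor had a wide site. The 3 wide sites beside feedback genes were all near Spred3, at Ryr1 (31866 bp), Rasgrp4 (6636 bp) and Catsperg1 (2921 bp), and Spred3 itself had none in its TSS windows. Within 50 kb either side of the TSS the median covered share was 11.9% for ligands, 6.37% for the receptors and co-receptor, 1.25% for feedback genes and 3.33% for all genes.

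Other components of the pathway had few wide sites. Of 54 further genes 13 (24.1%) had a site in the TSS windows and 4 (7.41%) had one of at least 2 kb, against 31.5% and 16.1% of all genes, and the median covered share of their regions was 0.213%. By role, a site was present in 2 of 7 co-receptors and binding proteins, 3 of 10 adaptors, 3 of 13 Ras-MAPK genes, 2 of 6 phosphatases and ETS factors and 3 of 18 heparan sulphate genes. The wide sites were those of Kl, the Klotho co-receptor of Fgf23 (7190 bp, windows covered throughout), Gpc3, a heparan sulphate proteoglycan (4160 bp, 92.4%), Dusp9, an ERK phosphatase (9483 bp, 22.3%), and Grb2, the adaptor to Sos (4199 bp, 5.92%). None of the 13 Ras-MAPK genes had a wide site.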

How the data were processed

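Per the labels and the study's methods, the authors aligned the reads with BWA to mm10 (GRCm38.p6), called broad peaks with MACS2 and brought the H3K27me3 sites of all samples together. The deposited list holds a chromosome, a start and an end per site, with no count or score. Versions, the threshold and the joining rule are not given in the sources used here, and the depth behind a site is unknown. Positions were read as 0-based with the end excluded and are printed 1-based.

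Sites were intersected with the protein-coding genes of GENCODE M21. TSS windows were 1 kb on either side of every annotated TSS, and the gene region was the body with the windows. Base composition and RefSeq Select TSSs came from RefSeq, in which all 35 members and 92.5% of genes had such a TSS. For the remaining genes the 5′ end of the GENCODE gene was used instead. Repeats of members in other sequences of the assembly were searched with minimap2 2.31-r1302. The interval functions (Python 3.11.15, numpy 2.4.6, pandas 2.3.3) were tested on simulated data. The number of columns of values per library that were not assigned to a sample was 0.

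The members and lists were chosen with earlier results of these data known. All 35 members are named. Other genes are named where a TSS shares a site with a member, lies within 50 kb of a member's TSS, or, in the pathway list, has a wide site, and for the marker lists. Arhgap26, which overlaps Fgf1, was named after its values were seen. Alternatives were narrow sites left out, sites joined, other windows, a minimum overlap, other sets of TSSs, a wider limit for wide sites and, chosen after seeing the data, curated RefSeq genes. Comparisons between groups were not analysed here, since the list used has no values per library.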

Additional observations from a re-analysis of the deposited data

Results flagged for a closer look

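In the list, 105 sites belonged to 23 further sequences, not assembled into chromosomes, and the comparisons of FGF genes do not use them. They were noted as a part of the list outside the main measurement and were not compared with anything. None of the 35 members has its annotated position on these sequences, and no value per library is given for them.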

How the results depend on the processing

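The count of ligands with a site in the TSS windows stayed between 12 and 15 and that of receptors and co-receptor between 3 and 4 under every alternative, and the count of feedback genes was between 1 and 3. With one TSS per gene, the 5′ end of the GENCODE gene, 6 ligands instead of 11 had a site of at least 2 kb, since Fgf9, Fgf10, Fgf12, Fgf14 and Fgf20 have it at an internal TSS, 2 of 6 receptors and co-receptor had one, and the shares of all genes were 25.3% with any and 14.3% with a wide site. With only sites of at least 500 bp or 1 kb, 1 feedback gene had a site, the median region share of feedback genes was 0 and 24.2% or 20.1% of all genes had a site. Sites closer than 1 kb joined gave 15 ligands, 1 feedback gene and 20.3% of all genes with a wide site, and closer than 5 kb joined 15 ligands, 4 receptors and co-receptor, 1 feedback gene and 25.5%. At least 500 bp of a window covered left 1 feedback gene, 22.2% of all genes with any and 15.2% with a wide site, TSSs of protein-coding transcripts 1, 28.9% and 15.3%, and curated RefSeq genes 1, 27.4% and 15.0%. Windows of 500 bp gave 27.8% and 15.2% of all genes, windows of 2.5 kb 39.8% and 18.1%, and a limit of 5 kb for wide sites 8.69%. The region share of single members moved by more than 1.5 times in 13 of 35, all downwards, without sites under 1 kb and in 10, all upwards, with sites joined at 5 kb. No paired analysis was possible because libraries are not told apart in the list, so leaving out single replicates was not possible either. Absence of a site is limited by a depth that is not given.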
